A study of Homo sapiens with 21 samples.

Results

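Heparan sulfate and chondroitin sulfate are long sulfated sugar chains attached to core proteins, and the genes described here build, modify and carry them. The 46 genes were taken by symbol: enzymes of the linker, of chain growth and of sulfation, proteoglycan core proteins, and enzymes that supply the sugar and sulfate donors. All 46 were present in both gene count tables, among 28008 genes in each. The study measured messenger RNA in 21 libraries of 2 human leukaemia lines, in 7 groups of 3 libraries and 2 sequencing batches. OCI-AML3 is a line from an acute myeloid leukaemia, and K562 comes from the blast crisis of a chronic myeloid leukaemia and can express erythroid genes. Batch 1 held OCI-AML3 cells labelled resistant (genotype Res, treatment StAMP, biological replicate 1), OCI-AML3 cells given DMSO vehicle, parental K562 cells and parental OCI-AML3 cells. Batch 2 held OCI-AML3 cells labelled resistant from biological replicate 2, the same label from biological replicate 1, and OCI-AML3 cells with vehicle. The labels give the vehicle and parental cells as wild type, and the series title speaks of stapled oncolytic peptides. The sources used here do not give how resistance was selected, the dose or the time. They also do not say whether a biological replicate of resistance is a clone or a pool, and the 3 libraries of a group are not stated to be separate cultures. The p-values therefore measure the spread between these libraries.

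Both chains start on the same linker, which xylosyltransferases begin on a serine of the core protein and which galactosyl- and glucuronyltransferases complete. The next sugar sets the chain type: EXTL3 and the EXT1-EXT2 polymerase make heparan sulfate, whereas the CSGALNACT, CHSY and CHPF proteins make chondroitin sulfate. Sulfotransferases then place sulfate groups that set which growth factors, chemokines and cationic proteins the chain binds. In blood cells serglycin, which packs the content of secretory granules, is a major carrier of such chains.

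The libraries labelled resistant did not carry the marker profile of OCI-AML3. Over 16 erythroid markers, which K562 expresses, the summed level was 5113 to 5469 CPM (counts scaled to library size with edgeR's TMM factors) in the libraries labelled resistant 1 of batch 1, against 29.6 to 31.9 CPM in vehicle libraries and 5154 to 5274 CPM in K562. In batch 2 it was 1125 to 1644 CPM in libraries labelled resistant 2 and 1820 to 1957 CPM in those labelled resistant 1, against 13.7 to 18.7 CPM in vehicle libraries. Over 16 myeloid markers the sum was 193 to 203 CPM in libraries labelled resistant 1 of batch 1 and 101 to 105 CPM in K562, against 4787 to 5020 CPM in vehicle. In batch 2 the myeloid sum was 550.0 to 660.2 CPM (labelled resistant 2) and 403 to 463 CPM (labelled resistant 1), against 3912 to 4023 CPM in vehicle. All 16 erythroid markers averaged at least 1 CPM in each group labelled resistant and in K562, against 3 of 16 in vehicle of either batch, where 8 were at 0 counts. Of the 16 myeloid markers 6 or 7 averaged at least 1 CPM in the groups labelled resistant, against 16 in vehicle of batch 1 and 15 in vehicle of batch 2. HOXA9 was at 0 counts in all 9 libraries labelled resistant and in K562. Fibroblast and epithelial markers (10 genes) summed to 68.9 to 71.4 CPM in libraries labelled resistant 1 of batch 1 and 115 to 121 CPM in K562, against 3.30 to 4.22 CPM in vehicle. In batch 2 that sum was 50.6 to 78.1 CPM (labelled resistant 2) and 66.6 to 73.0 CPM (labelled resistant 1), against 0.151 to 0.403 CPM in vehicle. Lymphoid markers (7 genes) summed to 4.41 to 18.0 CPM over the 9 libraries labelled resistant, against at most 0.981 CPM in vehicle. In K562 the lymphoid sum was 10.22 to 12.01 CPM, beside 10.58 to 12.98 CPM in libraries labelled resistant 1 of batch 1. The part of these markers in the results was not tested. Library totals ran from 14066821 to 21091646 counts in batch 1 and from 30719771 to 51262668 in batch 2. Every difference below between a library labelled resistant and vehicle is also a difference between K562-like and OCI-AML3-like RNA, and resistance and cell line cannot be told apart in it. In bulk RNA, fewer cells of a type and less RNA per cell cannot be told apart either.

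The 250 bases before the start of 4 members are shown for reading beside their values. XYLT1, CHSY3 and CHST13 averaged at least 5 CPM in vehicle libraries and had at most 15 counts in any library labelled resistant, and HS3ST3B1 was higher there. The sequences are from RefSeq (GRCh38.p14), 5′ to 3′ on the gene's strand, and cover chr16:17470961-17471210 (- strand), chr5:129904215-129904464 (+ strand), chr3:126523905-126524154 (+ strand) and chr17:14300831-14301080 (+ strand). Capitals mark the core GAGGAA, or its reverse complement, that ETS factors such as the myeloid SPI1 bind.
XYLT1: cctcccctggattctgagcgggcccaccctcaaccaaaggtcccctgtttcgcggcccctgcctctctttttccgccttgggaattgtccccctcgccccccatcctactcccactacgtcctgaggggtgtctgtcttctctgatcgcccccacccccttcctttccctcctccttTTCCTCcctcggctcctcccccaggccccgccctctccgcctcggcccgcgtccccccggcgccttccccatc
CHSY3: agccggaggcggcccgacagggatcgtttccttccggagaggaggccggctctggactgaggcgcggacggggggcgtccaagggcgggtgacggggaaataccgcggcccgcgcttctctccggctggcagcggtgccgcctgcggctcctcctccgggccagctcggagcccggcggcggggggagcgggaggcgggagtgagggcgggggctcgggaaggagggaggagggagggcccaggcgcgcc
CHST13: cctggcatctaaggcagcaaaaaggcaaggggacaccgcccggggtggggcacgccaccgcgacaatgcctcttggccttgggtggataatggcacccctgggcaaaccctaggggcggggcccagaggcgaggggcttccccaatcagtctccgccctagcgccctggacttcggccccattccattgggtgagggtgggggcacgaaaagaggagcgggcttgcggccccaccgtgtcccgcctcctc
HS3ST3B1: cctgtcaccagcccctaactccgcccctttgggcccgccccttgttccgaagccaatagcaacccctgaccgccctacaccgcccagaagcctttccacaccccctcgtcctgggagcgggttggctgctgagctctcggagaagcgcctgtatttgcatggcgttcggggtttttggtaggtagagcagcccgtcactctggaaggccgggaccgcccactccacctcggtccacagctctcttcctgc
Among these only XYLT1 held GAGGAA, 73 bases before the start on the opposite strand. Over the windows of 300 bases (250 before to 50 after a start), GAGGAA on either strand was present in 19 of the 52 promoters of the 39 members that matched (36.5%), against 9781 of all 35116 promoters (27.9%). The erythroid GATA motif, searched on both strands as AGATAA, as AGATAG, as TGATAA or as TGATAG, was present in 4 of the 52 (7.69%), against 8769 of all (25%). Some windows of the same gene overlap and share matches, such as 2 of EXT2. By gene, GAGGAA was present in 15 of the 39 members and the GATA motif in 3, and the background shares are by promoter only. The GAGGAA and GATA matches are letters only and do not show binding.

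Between 30 and 38 of the 46 members averaged at least 1 CPM, depending on the group: 31 in libraries labelled resistant 1 of batch 1, 38 in vehicle of batch 1, 30 in K562, 36 in parental OCI-AML3, 31 in each of the libraries labelled resistant of batch 2 and 36 in vehicle of batch 2. Levels between genes were compared per kilobase (kb) of exon. SRGN, the serglycin core protein, was the highest member per kb in every group. It stood at 120.2 ± 6.09 CPM per kb in libraries labelled resistant 1 of batch 1, against 549 ± 11.9 in vehicle, and at 124 ± 2.63 in K562, against 1019 ± 38.3 in parental OCI-AML3 (SD, n = 3 each). Behind SRGN the order differed between the groups. FAM20B, the kinase that phosphorylates the linker's xylose, was next with 34.1 ± 1.16 CPM per kb in libraries labelled resistant 1 of batch 1 and 38.8 ± 0.715 in K562. In vehicle of batch 1 the next were CHST11 (53.3 ± 1.87) and CHSY1 (53.2 ± 2.70), which do not differ beyond their spread, and in parental OCI-AML3 SDC2 (44.5 ± 1.92) and CHST11 (43.6 ± 2.94), which do not either. SULF1 and HS6ST2 had at most 3 counts in any library.

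**Figure D1:**
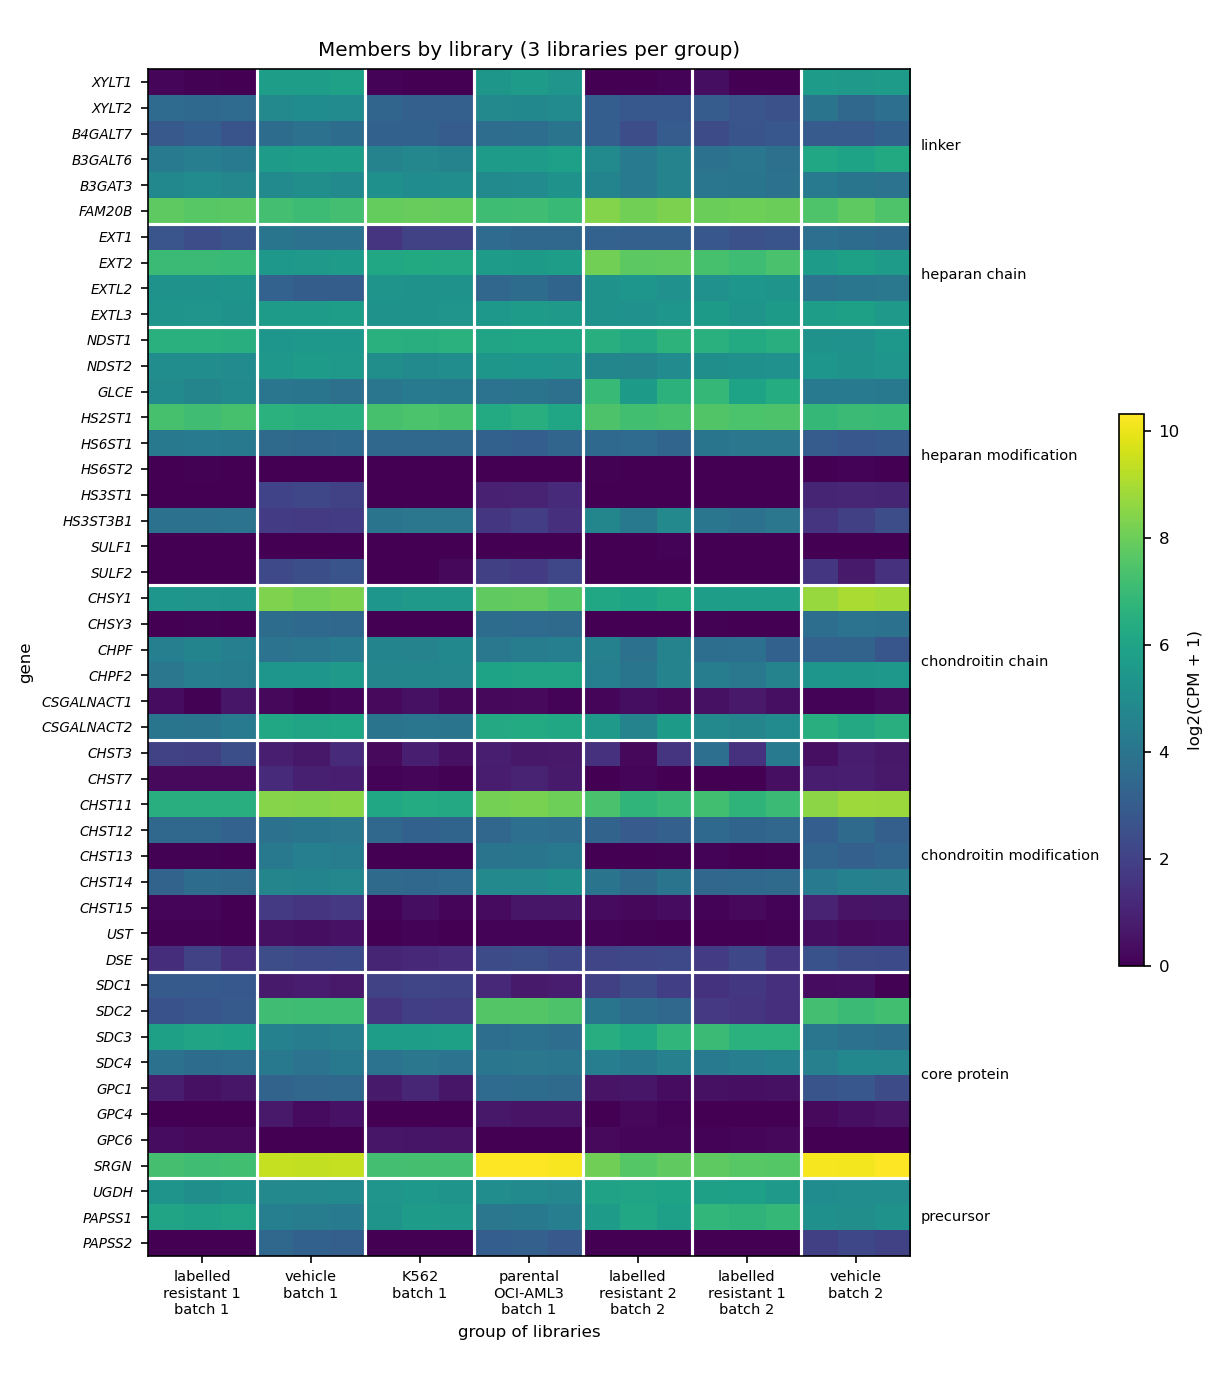
Level of the 46 members in each of the 21 libraries, as log2(CPM + 1); rows are genes in blocks by role, columns are libraries, and white lines part the 7 groups. The libraries labelled resistant and K562 share dark rows at XYLT1, CHSY3, CHST13 and PAPSS2, where the vehicle and parental OCI-AML3 libraries are lighter.

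Most members changed in each comparison of libraries labelled resistant with vehicle, and more fell than rose. In batch 1, 14 members rose and 25 fell of 40 tested in the libraries labelled resistant 1; the background over all genes tested was 44% higher and 42.1% lower, or 86% in all. In batch 2, 14 rose and 22 fell of 41 tested in libraries labelled resistant 2 (background 40.2% higher, 35.9% lower, 76.1% in all), and 15 rose and 20 fell in those labelled resistant 1 (39.9% higher, 35.8% lower, 75.7% in all). The members called were 97.5%, 87.8% and 85.4% of those tested in these 3 comparisons, to be read beside backgrounds of 86%, 76.1% and 75.7%. A gene was called at an adjusted p under 0.05 from edgeR's quasi-likelihood test with Benjamini-Hochberg adjustment. The median member changed by -0.88 on the log2 scale in batch 1, against 0.02 over all genes tested. In batch 2 the median was -0.41 (labelled resistant 2) and -0.46 (labelled resistant 1), against 0.07 in both over all genes. Both comparisons of batch 2 use the same 3 vehicle libraries, so their values are given side by side and not as independent of each other. HS6ST2, SULF1, UST, GPC4 and GPC6 were too low to be tested in any of the 3 comparisons, and CSGALNACT1 was tested only in batch 2.

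K562 differed from parental OCI-AML3 over the same genes, in a comparison that uses neither vehicle nor libraries labelled resistant. Of 38 members tested, 12 were higher and 23 lower in K562 (background 42.6% higher, 42.5% lower, 85.1% in all), with a median of -0.91, against 0.00 over all genes. Over the 46 members the correlation of log2 levels between libraries labelled resistant 1 of batch 1 and K562 was 0.980 to 0.989, against 0.720 to 0.730 between libraries labelled resistant 1 and vehicle of that batch. Over 10785 genes the same correlations were 0.978 to 0.980 with K562 and 0.507 to 0.510 with vehicle, so the likeness to K562 was also found over all genes. For batch 2 the correlations with K562 over these genes were lower, at 0.901 to 0.931 (labelled resistant 2) and 0.910 to 0.940 (labelled resistant 1). Those with vehicle of batch 2 were 0.555 to 0.573 and 0.553 to 0.576. Over the members the batch 2 values with K562 were 0.964 to 0.977 and 0.948 to 0.980, across batches normalized separately. These are correlations across genes, which are not independent replicates.

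**Figure D2:**
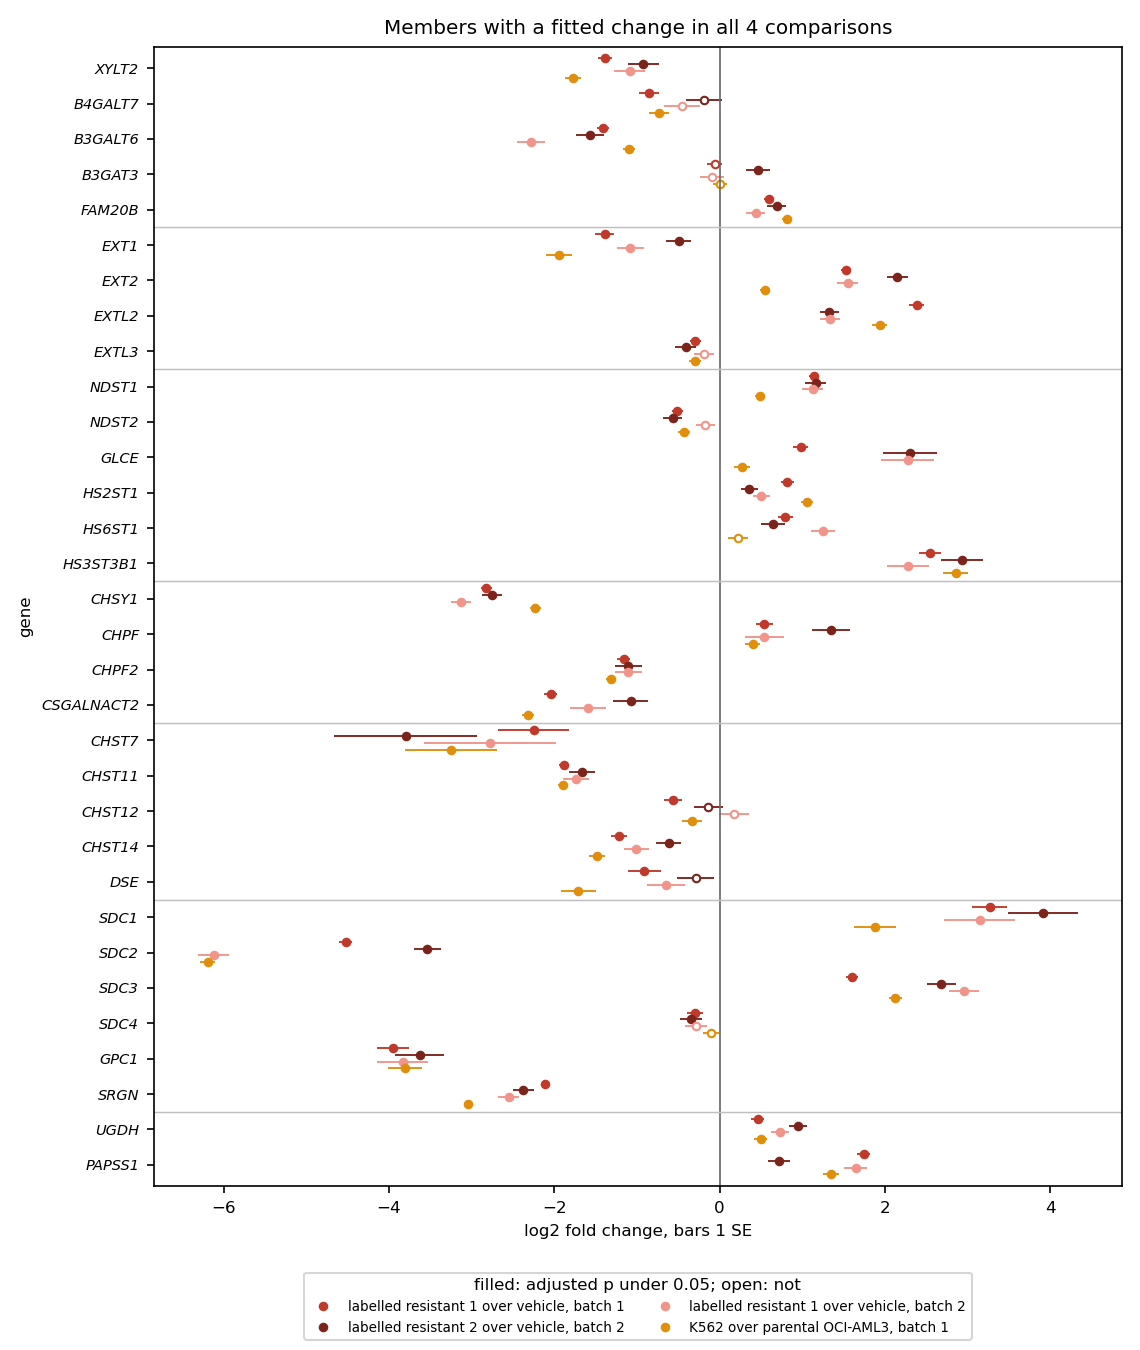
Log2 fold change with 1 SE of 32 members that had a fitted change in 4 comparisons, 3 of libraries labelled resistant over vehicle and 1 of K562 over parental OCI-AML3; lines part the roles and filled points have an adjusted p under 0.05. All 4 points lie on the same side of 0 for genes such as EXT2, HS3ST3B1, CHSY1, SDC2 and SRGN, while those of SDC4 lie near 0.

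Among the 6 linker genes, 1 rose and 4 fell in libraries labelled resistant 1 of batch 1. In batch 2, 2 rose and 3 fell for labelled resistant 2, and 1 rose and 3 fell for labelled resistant 1. The linker genes called were 83.3%, 83.3% and 66.7% of those tested in these comparisons, against 86%, 76.1% and 75.7% of all genes. XYLT1, XYLT2 and B3GALT6 were among those that fell, and FAM20B among those that rose. XYLT1, which starts the linker, had counts of 2, 1 and 0 in libraries labelled resistant 1 of batch 1, against 975, 1066 and 849 in vehicle. That is 992-fold lower, with a 95% interval of 339 to 4812-fold for counting error alone. The XYLT1 counts in batch 2 were 0, 0 and 4 (labelled resistant 2) and 15, 0 and 0 (labelled resistant 1), against 51.6, 46.9 and 51.2 CPM in vehicle. All counts of the group labelled resistant 1 in batch 2 lay in its library 1; the fitted change was -8.65 with that library and -13.99 without it, a value that rests on the model's prior. All counts of XYLT1 in the group labelled resistant 2 lay in library 3, and the fitted change was -10.62 with it and -14.01 without. K562 had counts of 1, 0 and 0, against 43.3, 50.7 and 40.3 CPM in parental OCI-AML3. No library labelled resistant overlapped any vehicle library. XYLT2, its paralogue, remained expressed: it had 11.1, 10.6 and 11.1 CPM in libraries labelled resistant 1 of batch 1, against 27.7, 31.7 and 30.6 CPM in vehicle, a log2 change of -1.38 ± 0.09 (edgeR adjusted p = 2.01e-14). A ± after a log2 change is its standard error (SE), and after a level it is the SD of the 3 libraries. For XYLT2 the changes in batch 2 were -0.92 ± 0.19 (edgeR adjusted p = 0.000469) for labelled resistant 2 and -1.09 ± 0.19 (edgeR adjusted p = 0.000120) for labelled resistant 1.

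B3GALT6, which adds the linker's second galactose, had 17.9, 20.1 and 17.6 CPM in libraries labelled resistant 1 of batch 1, against 48.9, 52.4 and 54.6 CPM in vehicle, a log2 change of -1.41 ± 0.07 (edgeR adjusted p = 4.68e-16). B3GALT6 in batch 2 had 29.2, 17.5 and 23.1 CPM (labelled resistant 2) and 13.9, 15.7 and 12.9 CPM (labelled resistant 1), against 69.0, 63.0 and 75.1 CPM in vehicle. The changes there were -1.57 ± 0.17 (edgeR adjusted p = 6.38e-07) for labelled resistant 2 and -2.29 ± 0.17 (edgeR adjusted p = 1.33e-08) for labelled resistant 1. Its libraries did not overlap with vehicle in any comparison. FAM20B went the other way, with 214, 199.6 and 205 CPM in libraries labelled resistant 1 of batch 1, against 148, 134 and 149 CPM in vehicle (log2 change 0.59 ± 0.06, edgeR adjusted p = 1.95e-10). Its change was 0.69 ± 0.12 (edgeR adjusted p = 6.92e-05) for labelled resistant 2 and 0.44 ± 0.11 (edgeR adjusted p = 0.00299) for labelled resistant 1 in batch 2. B4GALT7, which adds the first galactose, fell in batch 1 (-0.86 ± 0.12, edgeR adjusted p = 3.79e-07) and was at -0.19 ± 0.22 (edgeR adjusted p = 0.431) for labelled resistant 2 and -0.46 ± 0.22 (edgeR adjusted p = 0.0724) for labelled resistant 1 in batch 2; its batch difference was not called (0.38 ± 0.23, edgeR adjusted p = 0.212). B3GAT3, which closes the linker with glucuronic acid, was called only for labelled resistant 2 (0.47 ± 0.15, edgeR adjusted p = 0.00971); it averaged 28.0 ± 2.10 CPM in libraries labelled resistant 1 of batch 1, against 30.7 ± 2.58 CPM in vehicle. Between libraries labelled resistant 2 and 1, B3GAT3 was called and B4GALT7 was not.

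Of the 4 heparan chain genes, EXT2 and EXTL2 rose in each comparison with vehicle, and EXT1 fell. All 4 were called in batch 1 and for labelled resistant 2, and 75% for labelled resistant 1 of batch 2, beside the same backgrounds of 86%, 76.1% and 75.7%. EXT2, a subunit of the heparan polymerase, had 129, 129 and 127 CPM in libraries labelled resistant 1 of batch 1, against 44.6, 45.1 and 50.5 CPM in vehicle, a log2 change of 1.53 ± 0.06 (edgeR adjusted p = 3.33e-19). It had 273, 208 and 214 CPM (labelled resistant 2) and 156, 138 and 164 CPM (labelled resistant 1) in batch 2, against 49.0, 56.3 and 51.2 CPM in vehicle. All libraries labelled resistant lay above all vehicle libraries, with changes in batch 2 of 2.15 ± 0.13 (edgeR adjusted p = 9.22e-10) and 1.55 ± 0.13 (edgeR adjusted p = 3.39e-08) for labelled resistant 2 and 1. In K562 EXT2 averaged 72.7 ± 2.26 CPM, against 49.8 ± 2.23 CPM in parental OCI-AML3 (0.55 ± 0.06, edgeR adjusted p = 4.55e-08). EXT1, its partner subunit, fell to 5.12 ± 0.626 CPM in libraries labelled resistant 1 of batch 1, against 14.1 ± 0.695 CPM in vehicle (-1.39 ± 0.11, edgeR adjusted p = 1.09e-11). The EXT1 changes in batch 2 were -0.49 ± 0.16 (edgeR adjusted p = 0.00968) for labelled resistant 2 and -1.08 ± 0.16 (edgeR adjusted p = 2.15e-05) for labelled resistant 1.

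EXTL2, which adds an amino sugar to the linker, had 37.2, 36.7 and 39.4 CPM in libraries labelled resistant 1 of batch 1, against 8.38, 7.16 and 7.16 CPM in vehicle, and the groups did not overlap (2.39 ± 0.09, edgeR adjusted p = 5.22e-19). EXTL2 in batch 2 had 38.4, 42.0 and 36.1 CPM (labelled resistant 2) and 36.6, 41.6 and 39.1 CPM (labelled resistant 1), against 14.3, 15.5 and 16.4 CPM in vehicle. The libraries labelled resistant had 36.1 to 42.0 CPM over both batches, and the vehicle libraries of batch 2 were higher than those of batch 1, though these levels come from tables normalized separately. The changes in batch 2 were 1.33 ± 0.12 (edgeR adjusted p = 1.02e-07) and 1.34 ± 0.12 (edgeR adjusted p = 9.59e-08) for labelled resistant 2 and 1. EXTL3, which starts the heparan chain, fell by a small amount in batch 1 (-0.29 ± 0.07, edgeR adjusted p = 0.000218) and for labelled resistant 2 (-0.41 ± 0.12, edgeR adjusted p = 0.00788; 0.0504 without vehicle library 2), and its value for labelled resistant 1 in batch 2 was -0.19 ± 0.12 (edgeR adjusted p = 0.183). EXTL3 overlaps EXTL3-AS1, and NDST1 overlaps NDST1-AS1, on the opposite strand. The sources used here do not give the strand setting of the counting, so reads of such overlapping genes cannot be told apart with certainty.

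Of the 10 heparan modification genes 8 were tested. In each comparison with vehicle NDST1, GLCE, HS2ST1, HS6ST1 and HS3ST3B1 rose, and 3 genes fell in batch 1, 3 for labelled resistant 2 and 2 for labelled resistant 1 of batch 2. That is 100%, 100% and 87.5% of the 8, against 86%, 76.1% and 75.7% of all genes. HS3ST3B1, which adds the rare 3-O sulfate, had 13.6, 13.5 and 14.3 CPM in libraries labelled resistant 1 of batch 1, against 2.57, 2.35 and 2.52 CPM in vehicle, a log2 change of 2.54 ± 0.13 (edgeR adjusted p = 4.41e-16). HS3ST3B1 in batch 2 had 25.3, 17.1 and 28.0 CPM (labelled resistant 2) and 15.4, 13.3 and 16.1 CPM (labelled resistant 1), against 2.04, 2.89 and 4.37 CPM in vehicle. No library of the groups labelled resistant overlapped with vehicle, and the changes in batch 2 were 2.94 ± 0.25 (edgeR adjusted p = 8.23e-08) and 2.28 ± 0.25 (edgeR adjusted p = 1.16e-06) for labelled resistant 2 and 1. K562 averaged 15.5 ± 0.834 CPM, against 2.13 ± 0.458 CPM in parental OCI-AML3. HS3ST1, its relative, did the opposite and had 0 counts in all 9 libraries labelled resistant and in K562. It stood at 3.18, 3.58 and 3.07 CPM in vehicle of batch 1 and 1.08, 1.17 and 1.12 CPM in vehicle of batch 2, which makes it at least 60.1-fold lower in batch 1, taking 3 counts over a group as the floor. In batch 2 it was at least 51.6-fold (labelled resistant 2) and 45.2-fold lower (labelled resistant 1).

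NDST1, which removes acetyl groups and adds N-sulfate, had 91.3, 92.2 and 88.3 CPM in libraries labelled resistant 1 of batch 1, against 42.2, 43.5 and 43.8 CPM in vehicle (1.14 ± 0.06, edgeR adjusted p = 1.04e-16). The NDST1 values in batch 2 were 90.4, 73.7 and 101 CPM (labelled resistant 2) and 91.2, 78.6 and 88.9 CPM (labelled resistant 1), against 38.5, 36.3 and 43.7 CPM in vehicle. The 3 changes were close to each other, with 1.16 ± 0.13 for labelled resistant 2 and 1.13 ± 0.13 for labelled resistant 1 (edgeR adjusted p = 1.28e-06 and 1.83e-06). NDST2, of the same family, fell in batch 1 (-0.51 ± 0.07, edgeR adjusted p = 6.39e-08) and for labelled resistant 2 (-0.57 ± 0.12, edgeR adjusted p = 0.000470), and its value for labelled resistant 1 in batch 2 was -0.17 ± 0.12 (edgeR adjusted p = 0.191).

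GLCE, the epimerase that turns glucuronic into iduronic acid, rose to 29.1, 24.5 and 29.1 CPM in libraries labelled resistant 1 of batch 1, against 15.3, 15.3 and 13.1 CPM in vehicle (0.98 ± 0.09, edgeR adjusted p = 7.13e-11). GLCE in batch 2 had 122, 47.8 and 97.0 CPM (labelled resistant 2) and 116, 61.8 and 83.3 CPM (labelled resistant 1), against 18.7, 18.1 and 16.9 CPM in vehicle. Library 2 was the lowest in both groups labelled resistant, and each of the 6 libraries was still above all vehicle libraries. The changes were 2.31 ± 0.32 (edgeR adjusted p = 6.50e-05) and 2.28 ± 0.32 (edgeR adjusted p = 7.27e-05) for labelled resistant 2 and 1. K562 averaged 16.7 ± 1.10 CPM, against 13.9 ± 0.666 CPM in parental OCI-AML3 (0.27 ± 0.09, edgeR adjusted p = 0.0121; 0.0655 without K562 library 2), so the levels in batch 2 were above K562, a difference set across tables that were normalized separately and not tested.

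HS2ST1, which adds sulfate to iduronic acid, rose to 159, 139 and 156 CPM in libraries labelled resistant 1 of batch 1, against 95.4, 86.2 and 88.4 CPM in vehicle (0.82 ± 0.08, edgeR adjusted p = 3.66e-09). Its changes in batch 2 were 0.36 ± 0.10 (edgeR adjusted p = 0.00480) and 0.51 ± 0.10 (edgeR adjusted p = 0.000375) for labelled resistant 2 and 1. HS6ST1, which sulfates glucosamine, changed by 0.80 ± 0.09 (edgeR adjusted p = 1.20e-08) in batch 1. For HS6ST1 the changes in batch 2 were 0.65 ± 0.15 (edgeR adjusted p = 0.000900) for labelled resistant 2 and 1.26 ± 0.15 (edgeR adjusted p = 1.88e-06) for labelled resistant 1. SULF2, an enzyme that removes sulfate from finished heparan chains outside the cell, had counts of 0, 0 and 0 in libraries labelled resistant 1 of batch 1, against 3.80, 4.61 and 5.46 CPM in vehicle, at least 83.1-fold lower. In batch 2 a single count was found in the 6 libraries labelled resistant, against 2.11, 0.689 and 1.80 CPM in vehicle. Its exons overlap those of NCOA3 on the opposite strand.

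Among the 6 chondroitin chain genes CHSY1, CHSY3, CHPF2 and CSGALNACT2 fell in each comparison with vehicle, and CHPF was higher. Those called were 100% of those tested in batch 1, 83.3% for labelled resistant 2 and 100% for labelled resistant 1 of batch 2, against 86%, 76.1% and 75.7% of all genes. CHSY1, a chondroitin synthase, had 42.0, 40.6 and 38.9 CPM in libraries labelled resistant 1 of batch 1, against 315, 285 and 305 CPM in vehicle, a log2 change of -2.82 ± 0.06 (edgeR adjusted p = 2.84e-24). CHSY1 in batch 2 had 69.8, 62.2 and 76.3 CPM (labelled resistant 2) and 53.6, 51.9 and 54.6 CPM (labelled resistant 1), against 419.9, 515 and 468 CPM in vehicle. The groups were far apart, and the changes in batch 2 were -2.75 ± 0.12 (edgeR adjusted p = 2.38e-11) and -3.13 ± 0.12 (edgeR adjusted p = 6.64e-12) for labelled resistant 2 and 1. K562 had 42.3, 47.2 and 46.8 CPM, against 219, 228 and 193 CPM in parental OCI-AML3 (-2.23 ± 0.07, edgeR adjusted p = 1.87e-17).

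CHSY3, a further synthase, was at or near 0 in every library labelled resistant. Its counts were 0, 1 and 0 in libraries labelled resistant 1 of batch 1, against 203, 214 and 150 in vehicle, or 584-fold lower (95% interval 104 to 23099 for counting error; 0 counts without library 2). The CHSY3 counts in batch 2 were 0, 0 and 0 (labelled resistant 2, at least 618-fold lower) and 2, 0 and 0 (labelled resistant 1; 0 without library 1), against 12.3, 14.2 and 13.9 CPM in vehicle. K562 had 0 counts, and parental OCI-AML3 had 11.4, 11.2 and 10.8 CPM. CSGALNACT2, which starts the chondroitin chain, had 14.9, 14.7 and 17.3 CPM in libraries labelled resistant 1 of batch 1, against 71.8, 64.4 and 66.0 CPM in vehicle (-2.05 ± 0.07, edgeR adjusted p = 1.39e-19). CSGALNACT2 in batch 2 had 47.0, 23.4 and 47.9 CPM (labelled resistant 2) and 27.9, 24.6 and 30.5 CPM (labelled resistant 1), against 87.2, 73.1 and 88.9 CPM in vehicle. Library 2 of the group labelled resistant 2 was about as low as the group labelled resistant 1, and all 6 were below vehicle (-1.08 ± 0.22, edgeR adjusted p = 0.000462 and -1.59 ± 0.22, edgeR adjusted p = 1.74e-05 for labelled resistant 2 and 1).

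CHPF2, a partner of the synthases, averaged 18.3 ± 2.14 CPM in libraries labelled resistant 1 of batch 1, against 42.9 ± 2.25 CPM in vehicle (-1.16 ± 0.08, edgeR adjusted p = 9.88e-14). Its changes in batch 2 were -1.10 ± 0.17 and -1.10 ± 0.17 for labelled resistant 2 and 1 (edgeR adjusted p = 2.69e-05 and 2.84e-05). CHPF, the chondroitin polymerizing factor, moved up: it had 20.995, 24.1 and 20.7 CPM in libraries labelled resistant 1 of batch 1, against 14.0, 15.6 and 18.2 CPM in vehicle (0.54 ± 0.10, edgeR adjusted p = 1.59e-05). CHPF in batch 2 had 21.9, 13.3 and 23.1 CPM (labelled resistant 2) and 12.3, 12.7 and 8.28 CPM (labelled resistant 1), against 8.39, 8.69 and 5.70 CPM in vehicle. The change was 1.35 ± 0.23 (edgeR adjusted p = 0.000110) for labelled resistant 2. For labelled resistant 1 in batch 2 it was 0.54 ± 0.23 (edgeR adjusted p = 0.0480), a call that was lost without vehicle library 1 (adjusted p = 0.0512) or 3 (0.179), labelled resistant 1 library 1 (0.131) or 2 (0.144), or labelled resistant 2 library 1 (0.056). CHPF overlaps TMEM198, and CHPF2 overlaps SMARCD3, on the opposite strand; the same holds for DSE and TSPYL1, UST and UST-AS1, and UGDH and UGDH-AS1. CSGALNACT1 had 1 to 25 counts in any library, and was called only for labelled resistant 1 in batch 2 (1.97 ± 0.53, edgeR adjusted p = 0.00355).

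The 3 heparan chain enzymes EXT1, EXT2 and EXTL3 summed to 9.08 ± 0.106 CPM per kb in libraries labelled resistant 1 of batch 1, against 6.67 ± 0.223 in vehicle (SD, n = 3 each). The 6 chondroitin chain enzymes summed to 20.1 ± 0.567 CPM per kb, against 84.8 ± 3.71. Within the heparan sum only EXT2 rose in each comparison with vehicle. EXT1 fell in each, and EXTL3 fell in batch 1 and for labelled resistant 2, so the higher heparan sum is that of EXT2. Within the chondroitin sum CHSY1 alone had 53.2 CPM per kb in vehicle of batch 1, and CHPF rose. On the log2 scale the ratio of the heparan to the chondroitin sum was -1.09, -1.18 and -1.16 in the libraries labelled resistant 1 of batch 1, against -3.73, -3.64 and -3.63 in vehicle. In batch 2 the ratio was -1.05, -0.83 and -1.40 (labelled resistant 2) and -1.07, -1.18 and -1.05 (labelled resistant 1), against -4.03, -4.08 and -4.24 in vehicle. K562 had -1.88, -1.88 and -1.91, against -3.62, -3.65 and -3.49 in parental OCI-AML3. The groups did not overlap in any of these 4 comparisons, and the two-sided exact permutation p was 0.1, the smallest that 3 libraries against 3 allow. Libraries labelled resistant 1 of batch 1 also lay above K562 (exact permutation p = 0.1). The heparan sum per kb was 6.10 ± 0.192 in K562, against 6.24 ± 0.107 in parental OCI-AML3, with overlapping libraries (exact permutation p = 0.4), and its direction depended on the length used: not divided by length it was 113.8 ± 3.18 CPM in K562, against 107.3 ± 2.20 CPM in parental OCI-AML3. EXTL2, which acts on the linker and was called higher in K562, is not part of this sum. Without division by length the ratio itself was above 0 in libraries labelled resistant 1 of batch 1 (0.84), and the difference from vehicle was 2.81, against 2.52 per kb. These are RNA levels of enzymes and not amounts of sugar chain.

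**Figure D3:**
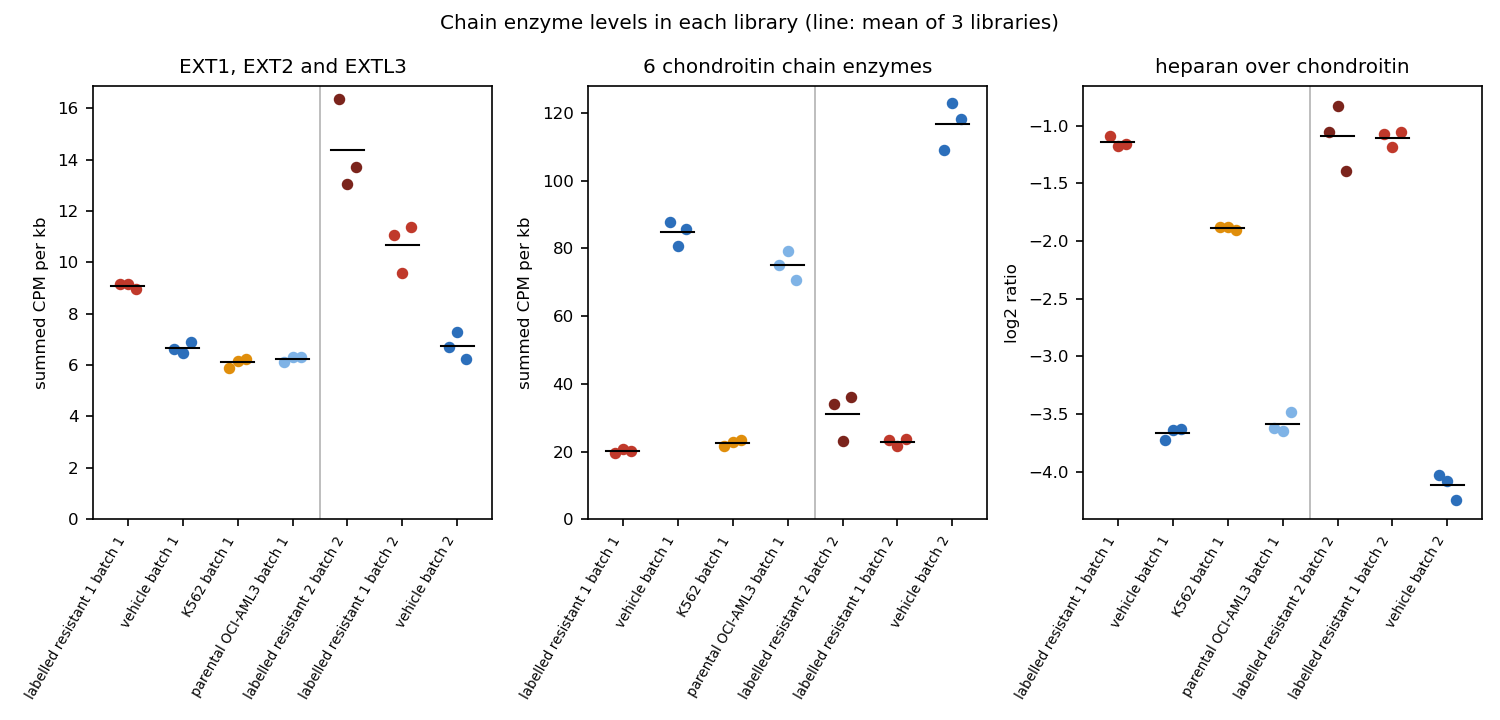
Summed level in CPM per kb of exon of the heparan chain enzymes (left), of the chondroitin chain enzymes (middle) and their log2 ratio (right) in each library; a vertical line parts the batches. The ratio lies between -1.40 and -0.83 in the 9 libraries labelled resistant and below -3.4 in every vehicle and parental OCI-AML3 library, with K562 near -1.89.

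Of the 9 chondroitin modification genes 8 were tested. In libraries labelled resistant 1 of batch 1, 1 rose and 7 fell. In batch 2, 0 rose and 5 fell for labelled resistant 2, and 1 rose and 6 fell for labelled resistant 1. Of those tested, 100%, 62.5% and 87.5% were called, against 86%, 76.1% and 75.7% of all genes, so the share for labelled resistant 2 lay below the background. CHST11, which adds the 4-O sulfate, had 90.9, 86.6 and 90.2 CPM in libraries labelled resistant 1 of batch 1, against 349, 333 and 356 CPM in vehicle, a log2 change of -1.88 ± 0.05 (edgeR adjusted p = 3.01e-22). CHST11 in batch 2 had 162, 106 and 127 CPM (labelled resistant 2) and 143, 104 and 128 CPM (labelled resistant 1), against 369, 448 and 432 CPM in vehicle. No library labelled resistant reached a vehicle library (-1.66 ± 0.16, edgeR adjusted p = 2.15e-07 and -1.74 ± 0.16, edgeR adjusted p = 1.41e-07 for labelled resistant 2 and 1). K562 averaged 75.8 ± 4.35 CPM, against 283 ± 19.1 CPM in parental OCI-AML3 (-1.90 ± 0.06, edgeR adjusted p = 2.00e-17).

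CHST13, a further 4-O sulfotransferase, had at most 3 counts in any library labelled resistant. Its counts were 1, 1 and 0 in libraries labelled resistant 1 of batch 1, against 302, 429 and 283 in vehicle, or 522-fold lower (95% interval 144 to 4316, counting error). The CHST13 counts in batch 2 were 0, 0 and 2 (labelled resistant 2; 0 without library 3) and 3, 1 and 1 (labelled resistant 1), against 9.42, 7.87 and 9.42 CPM in vehicle. K562 had 0 counts, and parental OCI-AML3 had 14.6, 15.3 and 17.2 CPM. CHST14, which acts on dermatan sulfate, fell by less, to 10.4 ± 1.37 CPM in libraries labelled resistant 1 of batch 1, against 25.2 ± 1.13 CPM in vehicle (-1.22 ± 0.10, edgeR adjusted p = 1.52e-11). Its changes in batch 2 were -0.61 ± 0.15 (edgeR adjusted p = 0.00192) and -1.01 ± 0.15 (edgeR adjusted p = 3.05e-05) for labelled resistant 2 and 1. CHST12 and DSE, the dermatan epimerase, fell in batch 1 (-0.56 ± 0.11 and -0.91 ± 0.20, edgeR adjusted p = 3.43e-05 and 0.000178). In batch 2 CHST12 was called in neither comparison with vehicle, and DSE only for labelled resistant 1 (-0.65 ± 0.23, edgeR adjusted p = 0.0183), a call lost without vehicle library 1 (0.0823) or without library 1 (0.064) or 3 (0.0934) of the group labelled resistant 1.

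CHST3, which adds the 6-O sulfate, had 3.13, 2.85 and 4.60 CPM in libraries labelled resistant 1 of batch 1, against 0.838, 0.588 and 1.43 CPM in vehicle (1.99 ± 0.27, edgeR adjusted p = 1.19e-07). CHST3 in batch 2 had 1.75, 0.157 and 1.98 CPM (labelled resistant 2) and 12.7, 1.77 and 17.5 CPM (labelled resistant 1), against 0.323, 0.742 and 0.589 CPM in vehicle. Library 2 was again the lowest of both groups labelled resistant, and in the group labelled resistant 2 it lay below all vehicle libraries. The change was 4.29 ± 0.99 (edgeR adjusted p = 0.00316) for labelled resistant 1 and 1.26 ± 1.02 (edgeR adjusted p = 0.283) for labelled resistant 2. CHST15, which makes the doubly sulfated chondroitin E unit, averaged 0.0832 ± 0.0741 CPM in libraries labelled resistant 1 of batch 1, against 2.19 ± 0.243 CPM in vehicle (-4.40 ± 0.44, edgeR adjusted p = 6.54e-10). For CHST15 the change in batch 2 for labelled resistant 2 was -1.48 ± 0.47 (edgeR adjusted p = 0.0101), a call lost without vehicle library 1 (-1.01, adjusted p = 0.0928). For labelled resistant 1 it was -2.46 ± 0.53 (edgeR adjusted p = 0.000676), and -3.09 without library 2 of that group. CHST7, a 6-O sulfotransferase, fell too, below 1 CPM in every library labelled resistant, with -2.25 ± 0.42 (edgeR adjusted p = 2.36e-05) in batch 1. In batch 2 it changed by -3.80 ± 0.86 (edgeR adjusted p = 0.00104) for labelled resistant 2 (-4.95 without library 2), and by -2.78 ± 0.80 (edgeR adjusted p = 0.00565) for labelled resistant 1, where the value was -2.16 without library 1, -2.17 without library 2 and -5.74 without library 3. UST, the uronyl sulfotransferase, had counts of 1, 1 and 0 in libraries labelled resistant 1 of batch 1, against 7, 6 and 6 in vehicle.

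Of the 8 core proteins 6 were tested. In batch 1, 2 rose and 4 fell in libraries labelled resistant 1. In batch 2, 2 rose and 4 fell for labelled resistant 2, and 2 rose and 3 fell for labelled resistant 1. The share called was 100%, 100% and 83.3%, against 86%, 76.1% and 75.7% of all genes. SDC2, syndecan 2, had 4.98, 5.74 and 6.49 CPM in libraries labelled resistant 1 of batch 1, against 141, 136 and 135 CPM in vehicle, a log2 change of -4.53 ± 0.08 (edgeR adjusted p = 2.73e-27). SDC2 in batch 2 had 15.1, 11.4 and 9.82 CPM (labelled resistant 2) and 2.26, 2.02 and 1.69 CPM (labelled resistant 1), against 151, 128 and 143 CPM in vehicle. All libraries labelled resistant were far below vehicle, and the group labelled resistant 2 lay above that labelled resistant 1 (-3.54 ± 0.16, edgeR adjusted p = 5.10e-11 and -6.12 ± 0.19, edgeR adjusted p = 7.74e-13 against vehicle). K562 had 1.99, 2.73 and 2.64 CPM, against 185, 187 and 173 CPM in parental OCI-AML3 (-6.20 ± 0.09, edgeR adjusted p = 5.83e-23).

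SDC3, syndecan 3, rose to 56.3, 63.3 and 63.0 CPM in libraries labelled resistant 1 of batch 1, against 21.9, 19.96 and 21.3 CPM in vehicle (1.60 ± 0.07, edgeR adjusted p = 1.07e-17). SDC3 in batch 2 had 85.7, 71.9 and 108 CPM (labelled resistant 2) and 131, 96.0 and 95.4 CPM (labelled resistant 1), against 15.7, 13.4 and 12.2 CPM in vehicle. Groups labelled resistant and vehicle did not overlap (2.68 ± 0.18, edgeR adjusted p = 3.08e-09 and 2.96 ± 0.18, edgeR adjusted p = 1.13e-09 for labelled resistant 2 and 1). SDC1, syndecan 1, rose and stayed low: it averaged 6.46 ± 0.222 CPM in libraries labelled resistant 1 of batch 1, against 0.690 ± 0.0870 CPM in vehicle (3.27 ± 0.21, edgeR adjusted p = 5.05e-14). Its changes in batch 2 were 3.92 ± 0.42 (edgeR adjusted p = 8.36e-07) and 3.15 ± 0.43 (edgeR adjusted p = 9.79e-06) for labelled resistant 2 and 1. SDC4, syndecan 4, changed little, at 12.3 ± 0.850 CPM in libraries labelled resistant 1 of batch 1, against 16.1 ± 1.73 CPM in vehicle (-0.30 ± 0.10, edgeR adjusted p = 0.00586). For SDC4 the change for labelled resistant 2 was -0.35 ± 0.14 (edgeR adjusted p = 0.0330), a call lost without vehicle library 2 (0.132) or 3 (0.107) or without library 1 (0.0513) or 2 (0.108) of that group, and for labelled resistant 1 in batch 2 it was -0.28 ± 0.14 (edgeR adjusted p = 0.0737).

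SRGN had 154, 139 and 145 CPM in libraries labelled resistant 1 of batch 1, against 681, 652 and 669.9 CPM in vehicle, a log2 change of -2.12 ± 0.05 (edgeR adjusted p = 2.55e-24). SRGN in batch 2 had 268, 194 and 219.6 CPM (labelled resistant 2) and 213, 196 and 193 CPM (labelled resistant 1), against 1157, 1129 and 1241 CPM in vehicle (-2.37 ± 0.13, edgeR adjusted p = 3.27e-10 and -2.55 ± 0.13, edgeR adjusted p = 1.55e-10). The groups did not overlap, and K562 (149.9, 154 and 148 CPM) lay below parental OCI-AML3 (1268, 1267 and 1187 CPM), with a change of -3.04 ± 0.05 (edgeR adjusted p = 1.82e-22). SRGN was 87.8 ± 0.740% of the summed per-kb RNA of the 8 core protein members in libraries labelled resistant 1 of batch 1, against 92.5 ± 0.0522% in vehicle. SDC3 was 6.32 ± 0.655% of that sum, against 0.502 ± 0.0127%, and SDC2 was 1.03 ± 0.160%, against 5.67 ± 0.0966%. The sum itself was 137 ± 5.80 CPM per kb, against 593 ± 13.2 in vehicle, so a share can rise without a rise of its gene. The share of SDC4 was 3.44%, against 1.04%, though SDC4 was called lower. Not divided by length, the shares were 62.9%, against 78.3% in vehicle, for SRGN, 26.2%, against 2.47%, for SDC3 and 2.47%, against 16.1%, for SDC2. The per-kb shares of SRGN, SDC3 and SDC2 each separated the groups without overlap (two-sided exact permutation p = 0.1, the smallest possible). GPC1, glypican 1, fell to 0.758, 0.376 and 0.541 CPM in libraries labelled resistant 1 of batch 1, against 8.72, 9.61 and 9.89 CPM in vehicle (-3.96 ± 0.19, edgeR adjusted p = 1.04e-16). GPC1 in batch 2 averaged 0.420 ± 0.133 CPM (labelled resistant 2) and 0.363 ± 0.0345 CPM (labelled resistant 1), against 5.20 ± 0.854 CPM in vehicle (-3.63 ± 0.30, edgeR adjusted p = 3.56e-08 and -3.84 ± 0.31, edgeR adjusted p = 2.80e-08). GPC6 had 0 counts in every vehicle and parental OCI-AML3 library and 3 to 9 counts in each library labelled resistant or of K562. GPC4 had 5 to 15 counts in each vehicle and parental OCI-AML3 library and 0 in the libraries labelled resistant 1 and in K562, while the group labelled resistant 2 had counts of 0, 7 and 3.

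**Figure D4:**
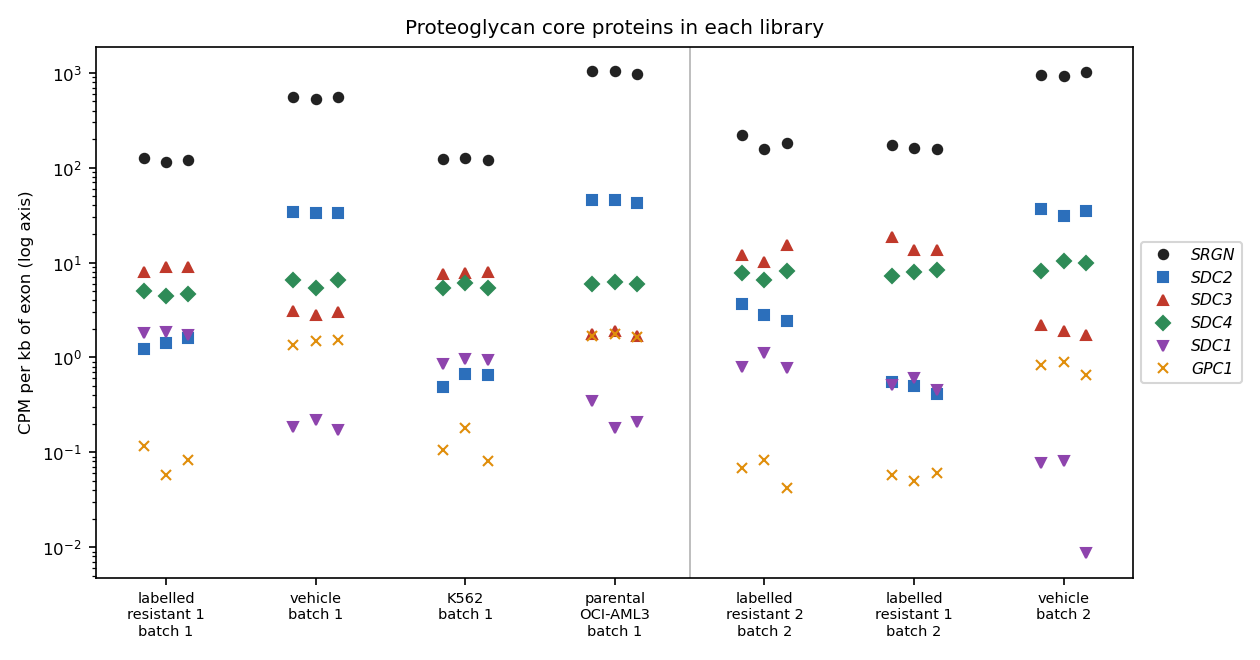
Level of 6 core protein genes in CPM per kb of exon, on a log axis, with 3 points per group for its 3 libraries; a vertical line parts the batches. SRGN is the top gene in all 7 groups, SDC2 stands above SDC3 in vehicle and parental OCI-AML3 libraries, and SDC3 stands above SDC2 in the libraries labelled resistant and in K562.

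The donor genes split between paralogues. PAPSS1, which makes the sulfate donor, had 64.4, 58.9 and 63.1 CPM in libraries labelled resistant 1 of batch 1, against 20.7, 19.2 and 18.3 CPM in vehicle (1.75 ± 0.08, edgeR adjusted p = 1.29e-17). PAPSS1 in batch 2 had 48.8, 71.5 and 55.6 CPM (labelled resistant 2) and 114, 105 and 116 CPM (labelled resistant 1), against 34.7, 33.3 and 38.7 CPM in vehicle (0.72 ± 0.14, edgeR adjusted p = 0.000207 and 1.65 ± 0.14, edgeR adjusted p = 4.79e-08). All libraries labelled resistant lay above vehicle. PAPSS2, the other donor synthase, had 0 counts in libraries labelled resistant 1 of batch 1, against 10.1, 8.24 and 7.71 CPM in vehicle, at least 158-fold lower. In batch 2 the 6 libraries labelled resistant held 1 count together, in library 1 of the group labelled resistant 1, against 2.84, 3.74 and 3.04 CPM in vehicle. K562 also had 0 counts of PAPSS2. UGDH, which makes the glucuronic acid donor, rose to 37.0 ± 2.93 CPM in libraries labelled resistant 1 of batch 1, against 28.3 ± 0.108 CPM in vehicle (0.46 ± 0.08, edgeR adjusted p = 4.25e-06). Its changes in batch 2 were 0.95 ± 0.11 (edgeR adjusted p = 1.60e-06) and 0.73 ± 0.11 (edgeR adjusted p = 2.43e-05) for labelled resistant 2 and 1.

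The resistant labels 2 and 1 differed from each other in 11 of 41 members tested in batch 2, with 7 higher and 4 lower in libraries labelled resistant 2 (background 12.4% higher, 11.9% lower, 24.4% in all). SDC2 differed most among the genes that were higher: 15.1, 11.4 and 9.82 CPM in libraries labelled resistant 2, against 2.26, 2.02 and 1.69 CPM in those labelled resistant 1 (2.58 ± 0.18, edgeR adjusted p = 3.05e-07). EXT2 (0.60 ± 0.12, edgeR adjusted p = 0.00290) and its partner EXT1 (0.58 ± 0.16, edgeR adjusted p = 0.0160) were both higher in libraries labelled resistant 2. The linker genes B3GALT6 and B3GAT3 were also higher (0.72 ± 0.17 and 0.56 ± 0.15, edgeR adjusted p = 0.00650 and 0.0136), as were CHPF (0.81 ± 0.23, edgeR adjusted p = 0.0208) and CHSY1 (0.38 ± 0.11, edgeR adjusted p = 0.0239). PAPSS1 was lower, with 48.8, 71.5 and 55.6 CPM in libraries labelled resistant 2, against 114, 105 and 116 CPM in those labelled resistant 1 (-0.93 ± 0.13, edgeR adjusted p = 0.000230). HS6ST1 (-0.60 ± 0.14, edgeR adjusted p = 0.00736) and NDST2 (-0.40 ± 0.12, edgeR adjusted p = 0.0247) were lower by less. CHST3 had the largest fall (-3.03 ± 0.88, edgeR adjusted p = 0.0360), and it was lower in each of the 3 pairs of libraries with the same number (adjusted p = 0.0109 with the library number as a block). The groups overlapped when the pairs were set aside, and without the block the call was lost when any library of either group except library 2 of the group labelled resistant 1 was left out (adjusted p 0.0523 to 0.0925). HS3ST3B1 and CSGALNACT2 missed the threshold (0.65 ± 0.23 and 0.51 ± 0.22, edgeR adjusted p = 0.0508 and 0.104) and passed it with the library number as a block (adjusted p = 0.0149 and 0.0283).
Single libraries also decided other calls of this comparison. CHSY1 was lost without any 1 of the 6 libraries except library 2 of the group labelled resistant 2 (adjusted p 0.0564 to 0.102). B3GAT3 and EXT1 were lost without library 3 of the group labelled resistant 1 (0.0662 and 0.0518) or library 1 of the group labelled resistant 2 (0.0624 and 0.0551), and B3GAT3 also without library 3 of the group labelled resistant 2 (0.0598). CHPF was lost without library 3 of the group labelled resistant 1 (0.101) or library 1 or 3 of the group labelled resistant 2 (0.0844 and 0.0945). NDST2 was lost without library 3 of the group labelled resistant 1 (0.0883) or library 1 or 2 of the group labelled resistant 2 (0.0889 and 0.0503).

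Within batch 1, libraries labelled resistant 1 differed from K562 in 18 of 32 members tested, with 12 higher and 6 lower (background 31.3% higher, 28.5% lower, 59.8% in all). Among the members tested the difference was largest in CHST3, with 3.13, 2.85 and 4.60 CPM in libraries labelled resistant 1, against 0.206, 0.806 and 0.369 CPM in K562 (2.90 ± 0.32, edgeR adjusted p = 1.14e-07; 3.51 without K562 library 2). SDC2 (1.21 ± 0.17, edgeR adjusted p = 2.69e-06), SDC1 (0.98 ± 0.14, edgeR adjusted p = 4.09e-06), EXT1 (0.94 ± 0.18, edgeR adjusted p = 0.000104), EXT2 (0.83 ± 0.05, edgeR adjusted p = 2.76e-12), HS6ST1 (0.83 ± 0.09, edgeR adjusted p = 9.39e-08) and GLCE (0.73 ± 0.08, edgeR adjusted p = 1.85e-07) were also higher. Among the genes that were lower, CHPF2 (-0.47 ± 0.08, edgeR adjusted p = 6.98e-05) and B3GALT6 (-0.37 ± 0.08, edgeR adjusted p = 0.000453) changed most. SRGN (-0.03 ± 0.05, edgeR adjusted p = 0.635), NDST1 (-0.01 ± 0.05, edgeR adjusted p = 0.916) and EXTL2 (-0.01 ± 0.06, edgeR adjusted p = 0.885) did not pass the test, with SE of at most 0.06. The median difference over the members was 0.01, as over all genes, and the median of its size was 0.22 over the 32 members tested, against 0.25 over all genes. For libraries labelled resistant 1 over vehicle of the same batch the median size was 1.57 over the 40 members tested, against 0.85 over all genes; the sets tested differ, since members with low counts in both libraries labelled resistant 1 and K562 were not tested between them.

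Vehicle and parental OCI-AML3 cells differed in 19 of 40 members tested, with 11 higher and 8 lower in vehicle (background 18.7% higher, 18.3% lower, 37% in all). Most differences were small, with a median size of 0.26 on the log2 scale, against 0.19 over all genes. CHST15 differed most, at 2.35, 1.91 and 2.32 CPM in vehicle, against 0.238, 0.523 and 0.544 CPM in parental cells (2.30 ± 0.33, edgeR adjusted p = 4.34e-06). HS3ST1 had 3.18, 3.58 and 3.07 CPM in vehicle, against 0.952, 1.05 and 1.36 CPM in parental cells (1.53 ± 0.23, edgeR adjusted p = 1.15e-05), and neither gene's groups overlapped. SRGN was lower, at 681, 652 and 669.9 CPM in vehicle, against 1268, 1267 and 1187 CPM in parental cells (-0.92 ± 0.05, edgeR adjusted p = 6.74e-15). SDC3 was higher (0.72 ± 0.09, edgeR adjusted p = 2.43e-07), and NDST1 was lower, with 42.2, 43.5 and 43.8 CPM in vehicle, against 63.7, 67.9 and 66.0 CPM in parental cells (-0.64 ± 0.06, edgeR adjusted p = 1.40e-09). These vehicle libraries are also those set against the libraries labelled resistant 1 of batch 1. SRGN and NDST1 stood lower, and CHST15, HS3ST1 and SDC3 higher, in that vehicle group than in parental cells.

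**Figure D5:**
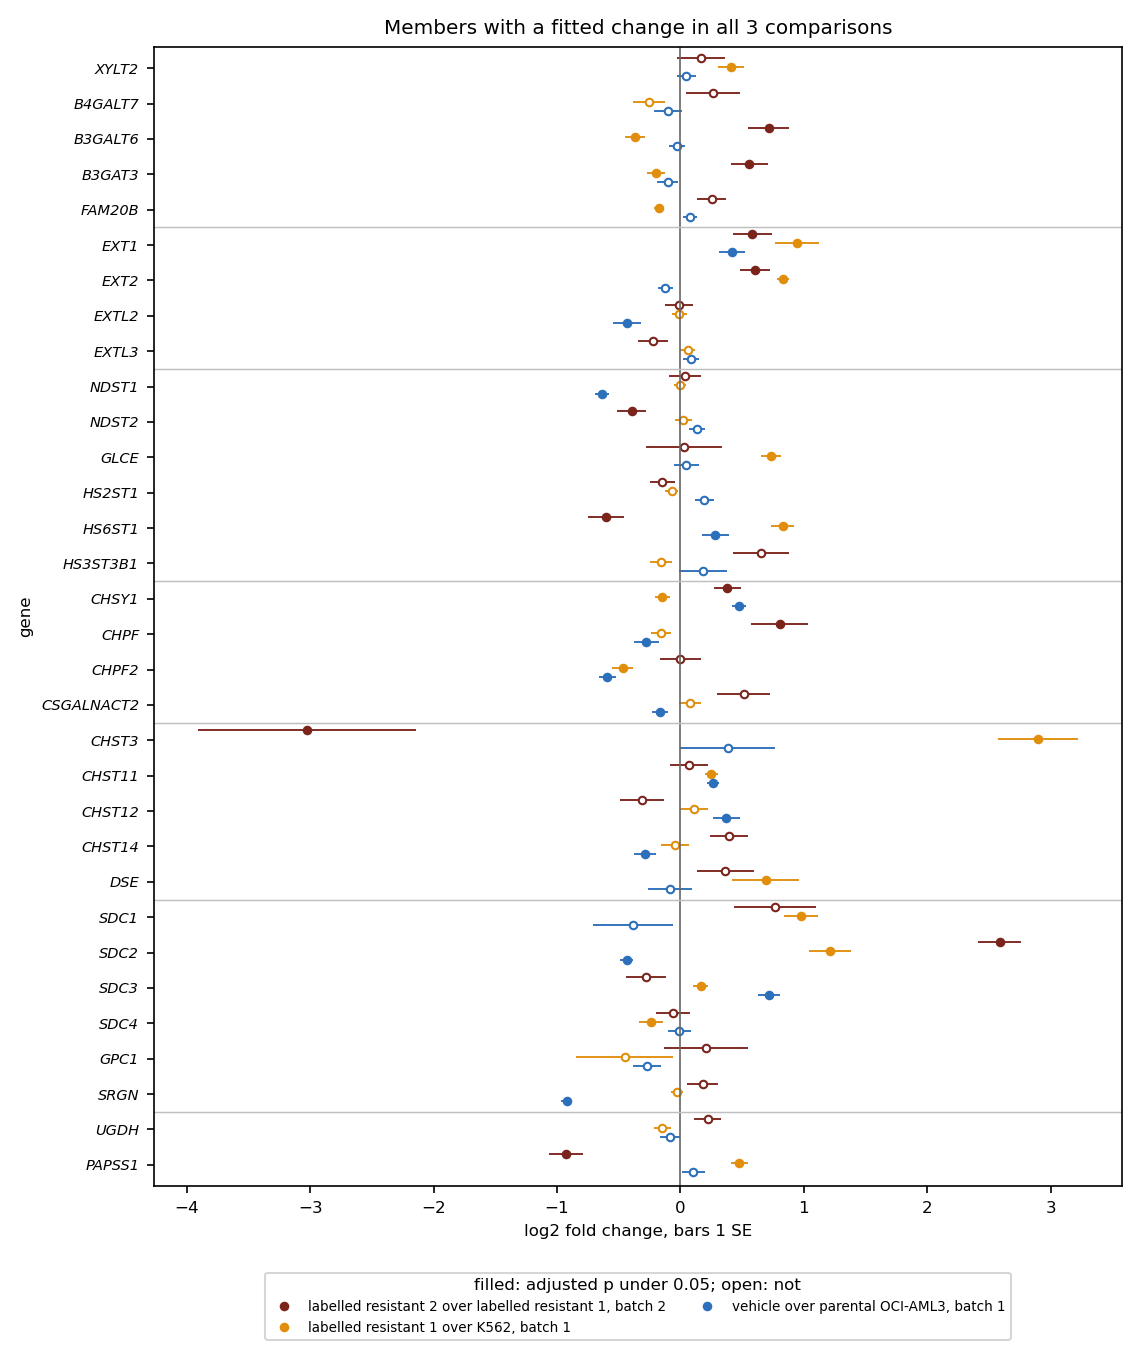
Log2 fold change with 1 SE of 32 members that had a fitted change in all 3 comparisons: libraries labelled resistant 2 over resistant 1 in batch 2, libraries labelled resistant 1 over K562 in batch 1, and vehicle over parental OCI-AML3 in batch 1; filled points have an adjusted p under 0.05. Most points lie within 1 of 0, and the points beyond it belong to CHST3 and SDC2.

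The change of libraries labelled resistant 1 over vehicle was measured in both batches, and its batch difference was called in 12 of 41 members, 6 in each direction (background 15% higher, 18.2% lower, 33.2% in all). SDC2 fell further in batch 2, with a batch difference of -1.61 ± 0.16 (edgeR adjusted p = 1.34e-06). SDC3 and GLCE rose further in batch 2 (1.34 ± 0.17, edgeR adjusted p = 1.86e-05 and 1.27 ± 0.24, edgeR adjusted p = 0.000878), and EXTL2 rose less (-1.06 ± 0.14, edgeR adjusted p = 2.20e-05). All 4 genes kept their direction in both batches. The sample names use the same numbers in both batches, and they do not say whether the same cultures or RNA were sequenced again. The batches are therefore not known to be independent, though the fit took their libraries as separate. Sequencing depth and the vehicle libraries differed between the batches as well, and the part of either in these differences was not tested.

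Other genes of the pathway that are not members were counted from a list of 60, of which 47 were tested in batch 1 and 49 in batch 2. In libraries labelled resistant 1 of batch 1, 16 rose and 27 fell against vehicle. In batch 2, 17 rose and 21 fell for labelled resistant 2, and 19 rose and 23 fell for labelled resistant 1. The neighbours called were 91.5%, 77.6% and 85.7% of those tested, against 86%, 76.1% and 75.7% of all genes. Of the 20 other core proteins 16 were tested: 6 rose and 9 fell in batch 1, 7 rose and 7 fell for labelled resistant 2, and 8 rose and 7 fell for labelled resistant 1 of batch 2. Of the lysosomal and other turnover genes, 4 rose and 12 fell of 18 tested in batch 1, and of 19 tested in batch 2, 5 rose and 11 fell for labelled resistant 2 and 6 rose and 9 fell for labelled resistant 1. VCAN, the chondroitin sulfate proteoglycan versican, had 0.142, 0.107 and 0.203 CPM in libraries labelled resistant 1 of batch 1, against 318, 317 and 301 CPM in vehicle (-10.91 ± 0.19, edgeR adjusted p = 1.06e-18). SPOCK1, a secreted proteoglycan, was at 1 count in those 3 libraries, against 48.2, 45.0 and 51.9 CPM in vehicle, and GPC3, glypican 3, at 0 counts, against 12.8, 14.3 and 12.8 CPM. CSF1, a growth factor that can carry chondroitin sulfate, rose to 27.8, 27.9 and 28.2 CPM in libraries labelled resistant 1 of batch 1, against 2.35, 2.35 and 3.55 CPM in vehicle (3.45 ± 0.12, edgeR adjusted p = 6.64e-20). TGFBR3, betaglycan, which carries both chain types, had 83.0, 80.1 and 80.2 CPM, against 10.1, 7.99 and 9.27 CPM in vehicle (3.23 ± 0.09, edgeR adjusted p = 6.21e-22). HYAL1, a hyaluronidase that also cuts chondroitin, had 11.7, 13.3 and 11.8 CPM, against 0.168, 0.294 and 0.341 CPM in vehicle (5.57 ± 0.21, edgeR adjusted p = 4.42e-19). K562 averaged 0.0734 CPM of VCAN, 0.0176 of SPOCK1, 0 of GPC3, 7.78 of CSF1, 67.3 of TGFBR3 and 6.51 of HYAL1. Over K562, libraries labelled resistant 1 were higher in CSF1 (1.86 ± 0.09), HYAL1 (0.93 ± 0.11) and TGFBR3 (0.29 ± 0.05), all called. VCAN, SPOCK1 and GPC3 were too low to be tested there.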

How the data were processed

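Messenger RNA of 21 libraries was sequenced from total RNA with strand-specific libraries, per the labels' protocols. The authors deposited raw read counts per gene in 1 table for each of the 2 batches. The submitters' processing notes name DESeq2 1.22.1 and hg38; the labels call the tables STAR gene counts, and the series' design text names the VIPER pipeline. The sources used here do not give the aligner's version, the annotation or the strand setting of the counting. All columns matched a sample.

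The deposited counts were tested with edgeR 4.0.16 (limma 3.58.1, R 4.3.3): filterByExpr, TMM factors, quasi-likelihood test, Benjamini-Hochberg adjustment over all genes tested. The 9 OCI-AML3 libraries of each batch were fitted together, comparisons with K562 used only the libraries compared, and the batch difference of labelled resistant 1 over vehicle used 1 fit with an interaction term. The fits were also run on simulated counts with few changed genes and a fixed spread between libraries. That run does not show how the fits behave where most genes change, as they did against vehicle here. Levels per kb used the union of exons in GENCODE 44. Fold intervals are exact 95% limits of a ratio of counts and cover counting error only, and 0 counts were set to a floor of 3 counts over a group. Shares and ratios were tested with exact permutation tests (Python 3.11.15, scipy 1.17.1).

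The members and gene lists were chosen with earlier results of these data known. Members given in full were called with the same sign in each comparison with vehicle, with a log2 change of at least 1 and at least 5 CPM in the higher group; or were among the 4 largest calls between labelled resistant 2 and 1, between vehicle and parental or between the batches; or were among the 5 highest per kb in a group. Of the neighbours, the 3 largest changes in each direction at 10 CPM or more in batch 1 are named.

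The library numbers were taken to pair the samples of batch 2 and not those of batch 1. In batch 2 same-numbered libraries deviated together (correlations of 0.12 to 0.40 over genes). Differently numbered libraries had at most 0.09 in the comparisons with vehicle. Between labelled resistant 2 and 1 they reached 0.34, above the 0.16 of library number 3, so the pairing is less certain there. The main fits did not use the pairing, and SE and adjusted p are without it unless the block is named. Alternatives were DESeq2 1.42.0, RLE factors, no low-count filter, other libraries in the fit, the replicate block, each library left out, and levels not divided by length. Replicates of a group differed beyond sampling noise (chi-square per degree of freedom of 1.81 to 7.18 in batch 1 and 20.8 to 84.5 in batch 2). A search for serine-glycine sites in the core proteins was not run.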

Additional observations from a re-analysis of the deposited data

Results flagged for a closer look

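The change of libraries labelled resistant 1 over vehicle differed between batch 2 and batch 1 for 12 of 41 members tested, by an interaction term in edgeR at an adjusted p under 0.05. That is 29.3% of the members tested, below the 33.2% of all genes tested. On the log2 scale, batch 2 minus batch 1, the difference was -1.61 for SDC2, -1.06 for EXTL2, -0.89 for B3GALT6, -0.45 for SRGN, -0.33 for CHSY1 and -0.33 for HS2ST1. It was 1.34 for SDC3, 1.27 for GLCE, 0.73 for CHST12, 0.44 for HS6ST1, 0.43 for CSGALNACT2 and 0.32 for NDST2. CHST12 changed by -0.56 in batch 1 and was not called in batch 2. The calls of NDST2, HS6ST1, HS2ST1, CHSY1 and CSGALNACT2 were lost when certain single libraries were left out, and those of the other 7 were not. Of the 12 calls, 2 were lost with DESeq2, 2 with RLE factors and 2 without the low-count filter. The batches also differ in depth and in their vehicle libraries, whose part in these differences was not tested.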

How the results depend on the processing

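No direction of a called change turned under any alternative run. Member counts against vehicle, and of K562 over parental OCI-AML3, stayed within 1.5 times of their value under every alternative. With single libraries left out, members higher in libraries labelled resistant 2 over resistant 1 numbered 3 (without resistant 1 library 3) to 11 (without resistant 2 library 2), and 4 without resistant 2 library 1 or 3; those lower numbered 2 to 4, with 2 without resistant 1 library 3 or resistant 2 library 1 or 2. For vehicle over parental OCI-AML3 they numbered 7 (without parental library 1) to 12 higher and 5 (without vehicle library 2) to 8 lower. For labelled resistant 1 over K562 they numbered 10 to 12 higher and 3 (without resistant 1 library 3) to 6 lower. For the batch difference they numbered 3 (without library 1 or 2 of resistant 1 in batch 1, or vehicle library 2 of batch 2) to 7 higher and 4 to 7 lower. The ratio of heparan to chondroitin chain enzymes not divided by length differed by 2.81 (resistant 1 over vehicle, batch 1), 3.34 (resistant 2 over vehicle), 3.27 (resistant 1 over vehicle, batch 2), 1.86 (K562 over parental) and 0.80 (resistant 1 over K562); the length chosen sets these values, and those of the core protein shares. The length of the canonical transcript was added after seeing the data.

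With the replicate block, HS3ST3B1 (adjusted p = 0.0149) and CSGALNACT2 (0.0283) passed the threshold for resistant 2 over resistant 1. In batch 1, where the numbers did not pair the libraries, HS6ST1 (0.0525) and CSGALNACT2 (0.0582) missed it for vehicle over parental, and CHSY1 (0.0968) and SDC4 (0.0627) for resistant 1 over K562. The block changed no other member call. With DESeq2, calls were lost for GLCE (adjusted p = 0.0501, K562 over parental), for HS6ST1 (0.0653), CHPF (0.0766), CSGALNACT2 (0.119) and CHST13 (0.0787) in vehicle over parental, for CHSY1 (0.0705), DSE (0.0939), SDC3 (0.0573) and SDC4 (0.0764) in resistant 1 over K562, and for HS2ST1 (0.0549) and CHSY1 (0.0782) in the batch difference. DESeq2 added HS3ST3B1 (0.0270) and CHST14 (0.0497) for resistant 2 over resistant 1 and HS2ST1 (0.0399) for vehicle over parental. CHST3 for resistant 2 over resistant 1 had 0.109 without the low-count filter and 0.0665 in a fit of those groups alone; the cause was not tested. Members below about 1 CPM, such as CHST7 and CSGALNACT1, rest on few counts.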
